A study of Homo sapiens with 2 samples.

Results

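Integrins and focal adhesion proteins were followed in RNA-seq of Huh7 cells, a human hepatocellular carcinoma cell line, as a set of 42 genes out of the 61541 genes of the deposited table. The genes were picked by symbol, by a rule that uses no measured value, although it was written with earlier results of these data known. They are the 26 integrin alpha and beta subunits of the table and 16 named proteins of the adhesion complex, namely TLN1, TLN2, VCL, PXN, ILK, PTK2, PARVA, LIMS1, FERMT1, FERMT2, ZYX, ACTN1, ACTN4, BCAR1, SRC and TNS1. Both groups were Huh7 cells carrying a transfected siRNA. Huh7-NC received a control siRNA and Huh7-si received an siRNA against BRF2, a TFIIB-related factor of the RNA polymerase III machinery. There was 1 library per group, so there is no replicate error anywhere below, and a difference between the libraries cannot be told apart from a difference between 2 cultures of the same cells. The labels name neither the time after transfection nor which siRNA was used. The comparison asks which genes differ in RNA level when BRF2 is knocked down.

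Integrins are receptors made of an alpha and a beta chain that hold a cell to its surrounding matrix or to other cells. Talins and kindlins bind the beta chain inside the cell and switch the receptor on, and the ILK, PINCH and parvin complex, vinculin, actinins, zyxin and tensins then tie it to actin, while FAK (PTK2), SRC and the scaffolds paxillin and p130Cas (BCAR1) carry the signal. Hepatocytes and hepatoma cells mainly use beta1 and alphaV receptors for collagen, laminin, fibronectin and vitronectin, whereas the beta2 and beta7 receptors belong to leukocytes and alphaIIb to platelets.

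The Huh7-NC library held 22852648 reads assigned to genes and the Huh7-si library 22089016. BRF2 itself had 1281 reads in Huh7-NC against 364 in Huh7-si, for a log2 fold change of -1.77 (95% interval -1.94 to -1.60), so the knockdown is visible in the libraries as labelled. All 10 hepatocyte and hepatoma marker genes had reads, with ALB at 126940 reads in Huh7-NC against 113860 in Huh7-si. Of the defining markers of other cells, the leukocyte genes CD3E and SPI1 and the platelet genes PF4 and PPBP had 0 reads in both libraries, and PTPRC had 5 reads in Huh7-NC against 1 in Huh7-si. Other markers of these lists did have reads, with 235 and 244 for CD68, 112 and 94 for CD14, 60 and 63 for PECAM1 and 158 and 218 for the stellate cell gene PDGFRB. The summed TPM (a level corrected for transcript length and scaled to the library) of the 7 platelet and endothelial markers was 0.96 in Huh7-NC against 1.69 in Huh7-si. For the 7 stellate cell and fibroblast genes, which fill 8 rows because RGS5 has 2, the sum was 13.3 and 17.6 TPM, with DCN and THY1 at 0 reads and COL1A1 at 76 reads in Huh7-NC against 229 in Huh7-si. The 7 leukocyte markers summed to 452 and 449 TPM, nearly all of it LYZ at 438 and 433 TPM, and the 5 biliary and other epithelial markers to 259 and 282 TPM. The part of such cells in the results was not tested.

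A gene was tested when it had at least 10 reads over both libraries. It was called higher or lower when the reads per total differed at least 2-fold with p under 0.05. The p came from an exact binomial test (two-sided) on the reads, a comparison of the libraries themselves rather than of the conditions. Of 17955 tested genes, 12.9% were called higher in Huh7-si and 1.17% lower. Among the 12017 tested genes with at least 100 reads in a library the shares were 6.9% and 0.325%. Scaling by edgeR's TMM, which assumes that most genes are level, moved every log2 fold change by -0.20, and 9.25% of tested genes were then higher and 2% lower. Higher genes made up 91.7% of calls by library totals, 82.2% with TMM and 81.6% with DESeq2's median of ratios.

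The alpha subunits ITGAV and ITGA2 and the adhesion protein TNS1 were the members with the clearest excess in Huh7-si. ITGAV, the alphaV chain of the vitronectin and fibronectin receptors, had 2497 reads in Huh7-NC against 6615 in Huh7-si, or 19.5 and 58.6 TPM. Its log2 fold change was 1.45 (95% interval 1.39 to 1.52), and 1.26 with TMM scaling. ITGA2, the alpha2 chain of a collagen receptor, had 489 reads in Huh7-NC against 1155 in Huh7-si, or 3.29 and 9.27 TPM. That is a log2 fold change of 1.29 (1.14 to 1.44), with p = 2.6e-67 by the exact binomial test and 1.09 with TMM. TNS1 (tensin 1), a protein that joins beta integrin tails to actin, had 359 and 946 reads, or 2.18 and 6.40 TPM. Its log2 fold change was 1.45 (1.27 to 1.63; exact binomial p = 8.6e-66), and 1.25 with TMM. In GENCODE release 29 (GRCh38), ITGAV lies on the plus strand at chr2:186590065-186680901, ITGA2 on the plus strand at chr5:52989326-53094779 and TNS1 on the minus strand at chr2:217799588-218033982, all of them protein-coding genes. In a bulk library, more RNA per cell and more cells with the RNA cannot be told apart.

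The windows at the transcription start of the pair of called integrin genes with the most reads are shown because both were higher by similar factors while their start sequences differ in the letters searched for. Each runs from 250 bases before the start to 50 bases after it, 5′ to 3′ on the plus strand, and comes from RefSeq on GRCh38.p14. Capitals mark the GC box, the letters GGGCGG on either strand, which the factor SP1 binds. ITGAV has 2 starts in the reference table, of which the outermost at chr2:186589806-186590105 is printed, and ITGA2 has 1 at chr5:52989102-52989401.
ITGAV: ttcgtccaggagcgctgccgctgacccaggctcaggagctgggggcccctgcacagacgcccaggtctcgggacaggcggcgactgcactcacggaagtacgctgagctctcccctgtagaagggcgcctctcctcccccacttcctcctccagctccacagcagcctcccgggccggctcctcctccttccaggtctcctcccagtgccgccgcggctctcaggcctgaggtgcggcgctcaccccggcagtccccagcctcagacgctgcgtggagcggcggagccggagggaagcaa
ITGA2: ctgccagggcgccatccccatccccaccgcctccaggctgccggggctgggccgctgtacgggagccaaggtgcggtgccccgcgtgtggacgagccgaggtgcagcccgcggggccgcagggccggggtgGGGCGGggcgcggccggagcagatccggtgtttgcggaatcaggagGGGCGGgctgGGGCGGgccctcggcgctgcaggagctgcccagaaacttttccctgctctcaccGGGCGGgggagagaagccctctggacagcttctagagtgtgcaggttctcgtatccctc
The ITGAV window is 70.7% G and C and holds 0 GC boxes, and the ITGA2 window is 72.7% G and C and holds 4. Neither holds the TATA box (TATAAA), the AP-1 site (TGANTCA), the TEAD site (CATTCC) or the CArG box of SRF, each searched on both strands; a CArG box can contain the TATA letters. Over all 34943 windows of this length in the table, 44.9% hold a GC box, 11.6% a TATA box, 7.72% an AP-1 site, 14% a TEAD site and 1.3% a CArG box. For 29 members the table has 50 windows, of which 28 hold a GC box (56%), 4 a TATA box (8%), 4 an AP-1 site (8%), 8 a TEAD site (16%) and 2 a CArG box (4%). These matches describe letters in a window and not binding.

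Counting all members, 34 of 42 had enough reads to be tested. Of these, 6 were called higher (17.6%, against 12.9% of all tested genes) and 1 lower (2.94%, against 1.17%). Among the 27 members with at least 100 reads in a library, 3 were higher (11.1%, against 6.9%) and 0 were lower (against 0.325%). These shares lie near the background for so few genes. The split by kind was uneven, with 5 of 18 tested integrin subunits higher (27.8%) and 1 of 16 adhesion proteins (6.25%). Depth differed between the kinds. With at least 100 reads in a library, 2 of 11 integrin subunits were higher (18.2%) and 1 of 16 adhesion proteins (6.25%). The called integrin genes ITGA2B, ITGAM and ITGB8 had fewer reads. The difference between the kinds was not tested. Log2 fold changes were above 0 for 25 of the 34 and below 0 for 9, and for 11641 and 6314 of all tested genes. With TMM the members stood at 18 above and 16 below, and all tested genes at 9113 above and 8842 below.

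**Figure D1:**
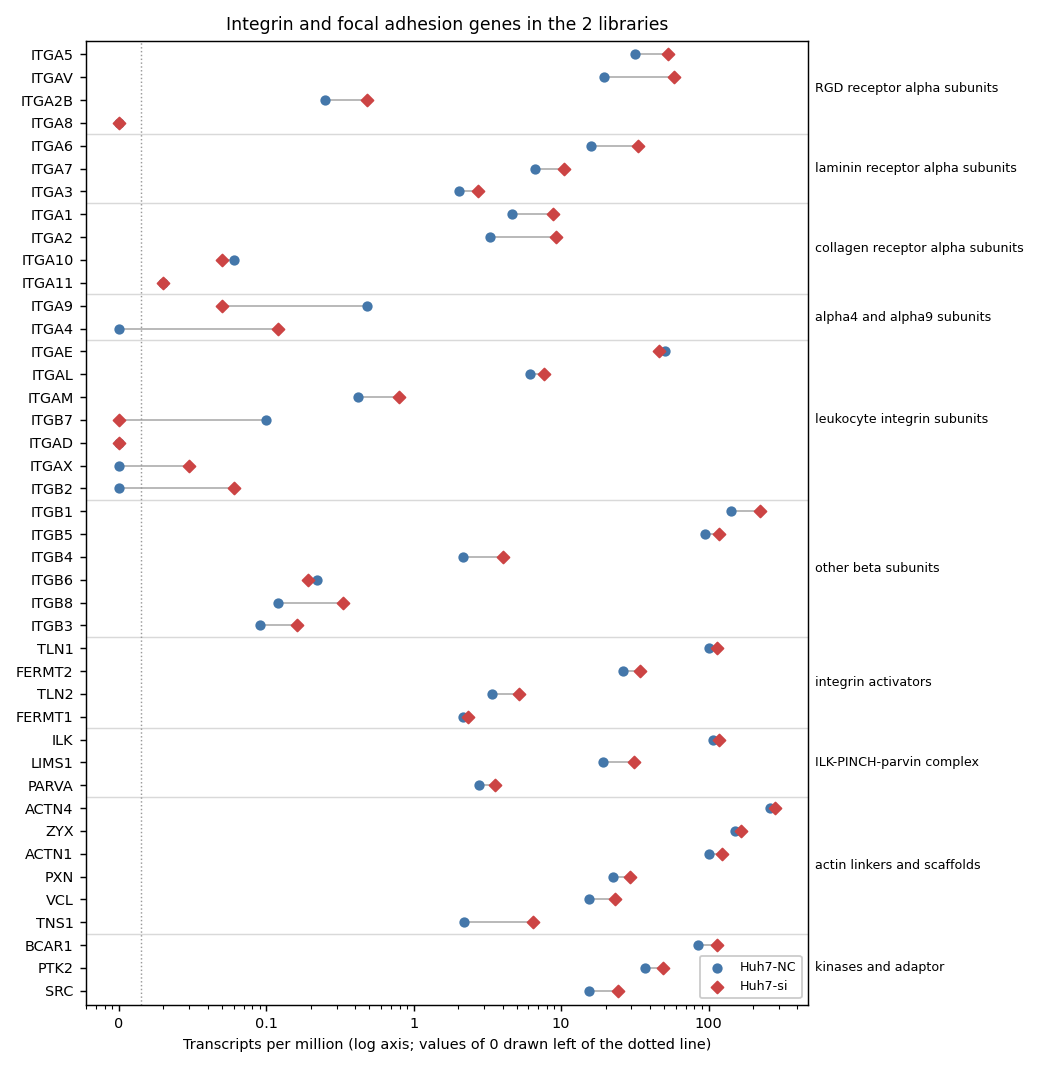
Level of the 42 genes in TPM (horizontal log axis) in Huh7-NC (blue circles) and Huh7-si (red diamonds), 1 library each, grouped by role. ITGAV went from 19.5 to 58.6 TPM and TNS1 from 2.18 to 6.40 TPM, while ITGA8 and ITGAD stood at 0 in both.

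Among the alpha subunits that bind the RGD motif of fibronectin and vitronectin, ITGAV has been given above. ITGA5, the alpha chain of the classical fibronectin receptor, had 1877 reads in Huh7-NC against 2601 in Huh7-si (31.5 and 52.7 TPM), for a log2 fold change of 0.52 (0.43 to 0.61) that was not called. The interval lay above 0 but below the 2-fold threshold. ITGA2B, the platelet alphaIIb chain, had 4 and 14 reads and was called higher at 1.74 (0.19 to 3.92; exact binomial p = 0.018), an interval so wide that the size is not known. ITGA8 had 0 reads in both libraries, where a count of 0 allows up to 3 reads, or 0.131 CPM (counts scaled to the library total) in Huh7-NC and 0.136 CPM in the other library.

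The laminin-binding alpha chains all lay between 0.27 and 0.66 on the log2 scale, and 0 of 3 were called. ITGA6, which pairs with beta1 or with beta4, had 1647 and 2516 reads (15.9 and 33.1 TPM), or 0.66 (0.57 to 0.75). ITGA7 had 310.0 and 458 reads at 0.61 (0.40 to 0.82). ITGA3 had 115 and 134 reads at 0.27, and its interval of -0.10 to 0.64 includes 0.

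Both tested collagen-binding alpha chains were more abundant in Huh7-si, although ITGA2 alone was called. ITGA1 lies next to ITGA2 on chr5:52787896-52959210, on the same strand. It had 843 reads in Huh7-NC against 1282 in Huh7-si (4.64 and 8.85 TPM), for a log2 fold change of 0.65 (0.53 to 0.78). Its exons share 475 bases on the same strand with PELO, a ribosome rescue factor gene with 1595 reads in Huh7-NC against 1250 in Huh7-si, so reads of the pair could have been split between them. ITGA10, a cartilage collagen receptor chain, had 5 and 4 reads, and ITGA11 had 3 and 4 reads, so neither was tested.

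ITGA9, whose alpha9beta1 receptor binds tenascin C, was the single member called lower. It had 22 reads in Huh7-NC against 5 in Huh7-si, for a log2 fold change of -1.98 (-3.85 to -0.65; exact binomial p = 0.0016). The locus at chr3:37452115-37823514 carries ITGA9-AS1 on the other strand, which shares 535 exon bases with it and had 38 and 27.1 reads (log2 fold change -0.43, interval -1.21 to 0.31). Whether the counting used strand is not given in the sources used here, and at these depths the pair cannot be told apart if it did not. ITGA4, the other alpha chain of this group, had 0 reads in Huh7-NC against 1 in Huh7-si.

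Leukocyte integrins were at the floor apart from 3 alpha chains. ITGAD had 0 reads in both libraries, ITGAX and the shared beta2 chain ITGB2 had 0 reads in Huh7-NC against 2 in Huh7-si, and ITGB7 had 1 and 0. The ITGB7 exons share 1886 bases with ZNF740 on the opposite strand, which had 1268 reads in Huh7-NC against 1313 in Huh7-si. How many of the ZNF740 reads fell in the shared bases is not known. ITGAM, the alphaM chain of a myeloid receptor, had 24 and 59 reads and was called higher at 1.33 (0.64 to 2.10; exact binomial p = 6.3e-05). ITGAL, the alphaL chain of lymphocytes, had 308 and 236 reads, a log2 fold change of -0.33 (-0.59 to -0.09), but its TPM was 6.13 in Huh7-NC against 7.62 in Huh7-si, the opposite direction. ITGAE, the alphaE chain that binds E-cadherin, had 435 and 357 reads at -0.24 (-0.44 to -0.03). Neither was called.

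ITGAE also had a level out of keeping with its reads. It stood at 51.0 TPM in Huh7-NC against 46.3 in Huh7-si, the highest alpha subunit of the control library, although ITGA5, of similar length, had 1877 reads there to its 435. Its TPM was 10.2 times its CPM per kilobase in Huh7-NC and 10.9 times in Huh7-si, where the median tested member had 1.42 and 1.64. The authors' TPM cannot be rebuilt from the gene length in the table, so the place of ITGAE in the order of levels is uncertain. Its exons share 427 bases with HASPIN on the opposite strand (713 and 729 reads).

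By TPM, the order of the alpha subunits differed between the libraries. In Huh7-NC it ran ITGAE, ITGA5, ITGAV, ITGA6, ITGA7, ITGAL, ITGA1 and ITGA2. In Huh7-si ITGAV came first at 58.6 TPM, ahead of ITGA5 at 52.7 and ITGAE at 46.3, and ITGA2 at 9.27 TPM stood ahead of ITGA1 at 8.85. Without replicates no spread is known for neighbours in these orders.

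The 6 tested beta subunits had a median log2 fold change of -0.10 and the 12 tested alpha subunits one of 0.63; the difference was not tested. The beta median depended on the measure. It was 0.56 by TPM (alpha 0.74), 0.26 over the 2 beta genes with at least 100 reads in a library and 0.05 over those with 10 reads in each library. ITGB1, the common beta1 chain, was the second member by mean TPM, with 9921 reads in Huh7-NC against 13257 in Huh7-si, or 141 and 224 TPM. Its log2 fold change was 0.47 (0.43 to 0.50) and it was not called. A pseudogene, ITGB1P1, had 186 and 210.0 reads (log2 fold change 0.22), so that some of its reads may be those of ITGB1. ITGB5, a beta partner of alphaV for vitronectin, had 4138 and 4148 reads (94.7 and 118 TPM), for a log2 fold change of 0.05 (-0.01 to 0.11) by library totals that was -0.15 with TMM. The other alphaV partners were rare. ITGB3 had 10 and 8 reads, ITGB6 had 18 and 13, and neither interval excluded 0. ITGB8, whose alphaV receptor binds latent TGF-beta, had 19.9 and 47 reads and was called higher at 1.27 (0.50 to 2.11; exact binomial p = 0.00057). ITGB4, the laminin receptor chain of hemidesmosomes, had 98 reads in Huh7-NC against 71 in Huh7-si at -0.41 (-0.88 to 0.04), while its TPM was 2.15 and 4.04, again the opposite direction.

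Since beta1 can pair with 12 of the alpha subunits, their summed levels were set beside it. The 12 partners summed to 83.9 TPM in Huh7-NC against 176 TPM in Huh7-si, a ratio of 2.10, where ITGB1 itself had a ratio of 1.59. ITGAV made up 23.2% of the partner sum in Huh7-NC and 33.3% in Huh7-si. For alphaV, a ratio of 3.01 in TPM stood beside a ratio of 1.45 for the sum of its 5 beta partners, from 237 to 343 TPM, nearly all of it ITGB1 and ITGB5. TPM ratios ran high over the whole table, with a median log2 ratio of 0.37 over all tested genes. By reads the ratio was 1.38 for ITGB1 and 2.74 for ITGAV. All of these are RNA levels and say nothing of assembled receptors.

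**Figure D2:**
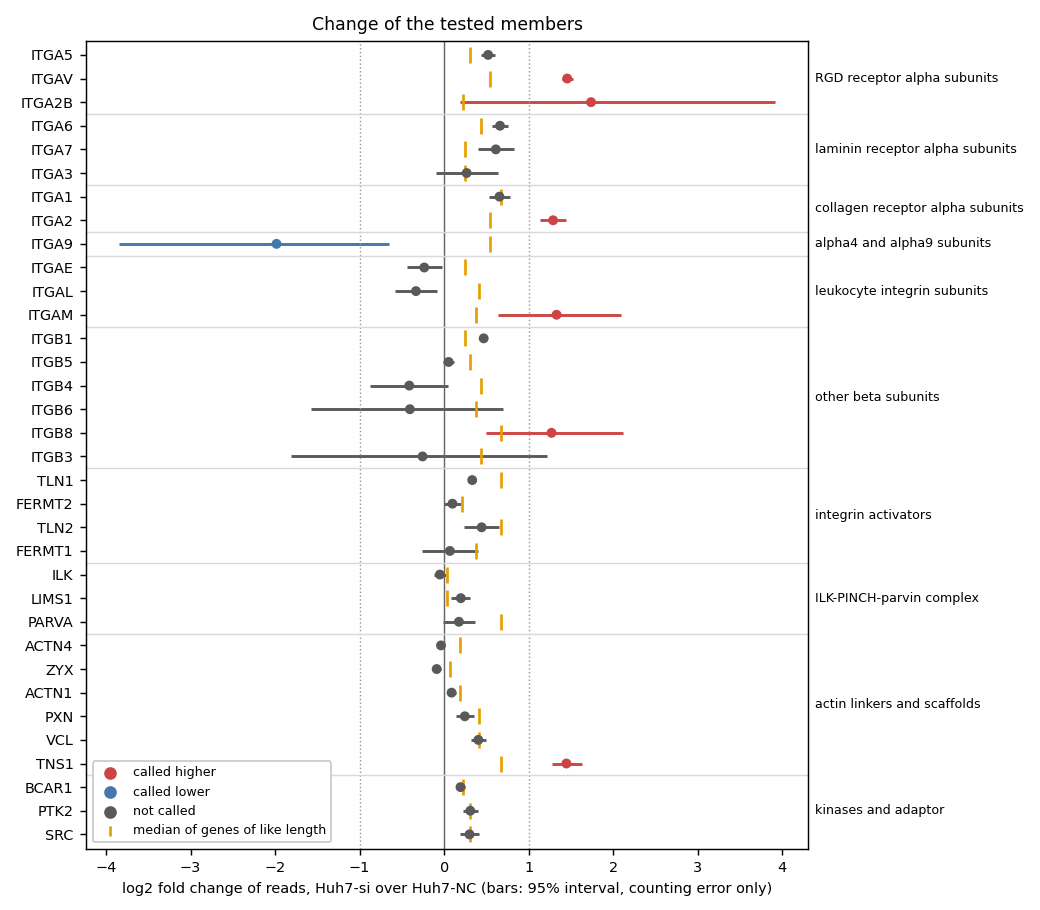
Log2 fold change of reads (Huh7-si over Huh7-NC, library totals) for the 34 tested members with 95% Clopper-Pearson intervals for counting error. Red points were called higher, the blue point (ITGA9) lower, and grey points were not called. Orange ticks give the median of tested genes of like length. It lies to the right of 22 of the 34 points, and above the value of 7901 of 14095 tested protein-coding genes. Under TMM every point and tick moves by -0.20, and FERMT1, FERMT2, ITGB5, LIMS1, PARVA, BCAR1 and ACTN1 then lie below 0.

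The integrin activators differed by at most 0.44 on the log2 scale. TLN1, the main talin, had 8068 reads in Huh7-NC against 9811 in Huh7-si (101 and 115 TPM), for a log2 fold change of 0.33 (0.29 to 0.37). TLN2 had 331 and 435 reads at 0.44 (0.23 to 0.65). The kindlin genes stood near 0, FERMT2 with 1579 and 1633 reads at 0.10 (-0.003 to 0.20) and FERMT1 with 155 and 157 reads at 0.07 (-0.26 to 0.40), and both turned below 0 with TMM (-0.10 and -0.13). None of the 4 was called.

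In the ILK, PINCH and parvin complex, which joins beta tails to actin, 0 of 3 genes were called. ILK had 3085 and 2879 reads (108 and 118 TPM) at -0.05 (-0.12 to 0.02), and its exons share 2374 bases with TAF10 on the other strand (1016 and 965 reads). LIMS1, the PINCH adaptor, had 1269 and 1406 reads at 0.20 (0.09 to 0.31), or -0.001 with TMM. Its near-copies LIMS3 (7.77 and 10.9 reads) and LIMS4 (29.5 and 29.4 reads) could share some of its reads. PARVA had 454 and 495 reads at 0.17 (-0.01 to 0.36), and -0.02 with TMM.

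Of the actin linkers and scaffolds, TNS1 stood alone. ACTN4, an actin crosslinker and the most abundant member, had 17689 reads in Huh7-NC against 16656 in Huh7-si (261 and 284 TPM), for a log2 fold change of -0.04 (-0.07 to -0.01). Its exons share 868 bases with CAPN12 on the opposite strand (64.2 and 328 reads). ZYX (zyxin) had 5674 and 5158 reads (151 and 166 TPM) at -0.09 (-0.14 to -0.03). ACTN1 had 5824 and 5981 reads (100.2 and 123 TPM) at 0.09 (0.04 to 0.14), or -0.11 with TMM. All 3 differed by 6.25% or less in reads per total. VCL (vinculin), which binds talin and actin, had 1887 and 2414 reads at 0.40 (0.32 to 0.49), and its exons share 1109 bases with AP3M1 on the opposite strand (1773 and 1884 reads). PXN (paxillin) had 1301 and 1490 reads at 0.24 (0.14 to 0.35). Its antisense gene PXN-AS1, with 918 shared exon bases, had 310 reads in Huh7-NC against 175 in Huh7-si, for a log2 fold change of -0.77 (-1.05 to -0.50).

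The kinases and their adaptor lay within a narrow range and were not called. PTK2 (FAK) had 2012 and 2409 reads (36.8 and 49.3 TPM) at 0.31 (0.22 to 0.39). SRC had 1206 and 1435 reads at 0.30 (0.19 to 0.41). BCAR1 had 4668 and 5158 reads (84.7 and 114 TPM) at 0.19 (0.14 to 0.25), or -0.01 with TMM.

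Of the other antisense and divergent genes named for members, ACTN1-DT, ITGA2-AS1, ITGB2-AS1, ITGB5-AS1 and LIMS1-AS1 had 0 reads in both libraries. ITGA6-AS1 had 0 reads in Huh7-NC against 2.01 in Huh7-si, and TNS1-AS1 had 1 and 0. ITGB1-DT had 8 and 3 reads, a log2 fold change of -1.23 (-3.92 to 0.69). ITGB8-AS1 had 2 and 8 reads at 1.81 (-0.28 to 5.32). Neither was called.

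Gene length moved with the change over the whole table. In 20 bins of tested genes by length, the median log2 fold change ran from -0.17 at 701 to 959 bases to 0.67 at 8484 bases and longer, where 26.3% of genes were called higher. The members were long genes, with a median length of 4639 bases over the 34 tested against 2743 over all tested genes, and 6 of them fell in the longest bin. The median log2 fold change of the tested members was 0.25, with 0.21 over all tested genes, 0.15 over protein-coding genes and 0.38 as the median of the bins the members came from. With the like-length median taken off, the members' median was -0.06, with 12 members above 0 and 22 below. For the integrin subunits the median was 0.49 as measured and 0.11 less like-length genes. For the adhesion proteins it was 0.20 and -0.10, with 2 of 16 above 0, namely LIMS1 (0.16) and TNS1 (0.77). All 16 had at least 100 reads in a library. At that depth all tested genes had a median of -0.08 less like-length genes, with 4962 above 0 and 7049 below. Over tested protein-coding genes of any depth it was -0.06, with 6185 above and 7901 below. The medians of the members and of the adhesion proteins lie near these values.

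**Figure D3:**
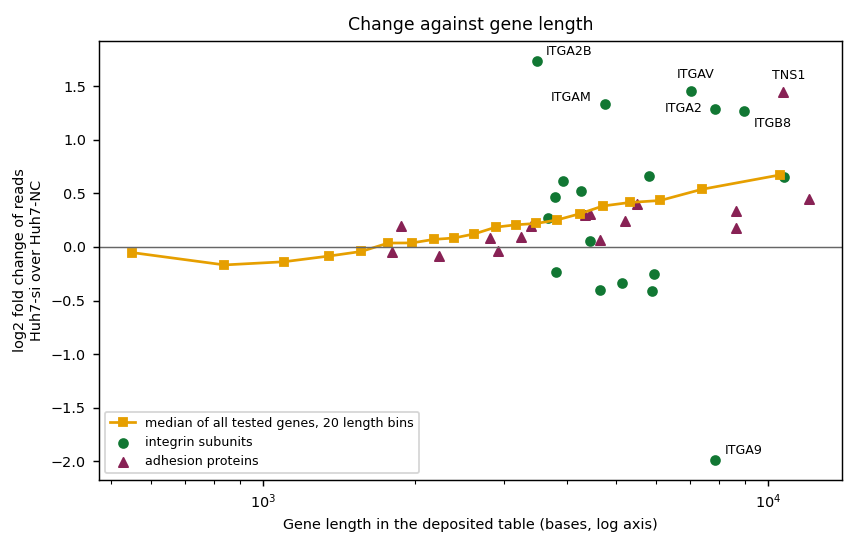
Log2 fold change of reads (Huh7-si over Huh7-NC) against gene length in bases (log axis) for the tested integrin subunits (green circles) and adhesion proteins (purple triangles). Orange squares are the medians of all tested genes in 20 length bins, from -0.17 to 0.67, drawn at the median length of each bin, and the 7 called members are named.

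Less its like-length median, ITGAV kept a log2 fold change of 0.92, TNS1 of 0.77 and ITGA2 of 0.75, all below the 2-fold threshold. ITGA2B stood at 1.52 with an exact binomial p of 0.056, and 0 members were called higher on that scale, while ITGA9 was still called lower at -2.52. ITGA1 stood at -0.02 and TLN1 at -0.34. The part of length in the calls was not tested further. When edgeR's exact test was given a biological coefficient of variation of 0.4 as an assumption, 0 of the 34 members were called in either direction, with 569 genes higher and 54 lower in the whole table. With a pseudocount of 1 CPM the members still called were ITGAV, ITGA2 and TNS1, and when 10 reads were required in each library ITGA2B and ITGA9 could no longer be tested.

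TPM gave another view of the same libraries. Over the tested genes the log2 ratio of TPM ran above that of reads by a median of 0.16, and 31 of the 34 tested members had a higher TPM in Huh7-si. The median log2 ratio of TPM was 0.37 over all tested genes and 0.44 over the members. A higher TPM was thus common to most tested genes, although their share was not counted. For 6 members the directions by TPM and by reads were opposite, namely ITGAL, ITGB4, ITGB3, ACTN4, ZYX and ILK. Of the low members called higher by reads, ITGA2B had 0.25 and 0.48 TPM and ITGAM 0.42 and 0.79, both short of 2-fold, while ITGB8 had 0.12 and 0.33. Their log2 ratios of TPM + 0.1 were 0.73, 0.78 and 0.97, where the added 0.1 is close to the control level of ITGB8 and lowers its ratio.

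**Figure D4:**
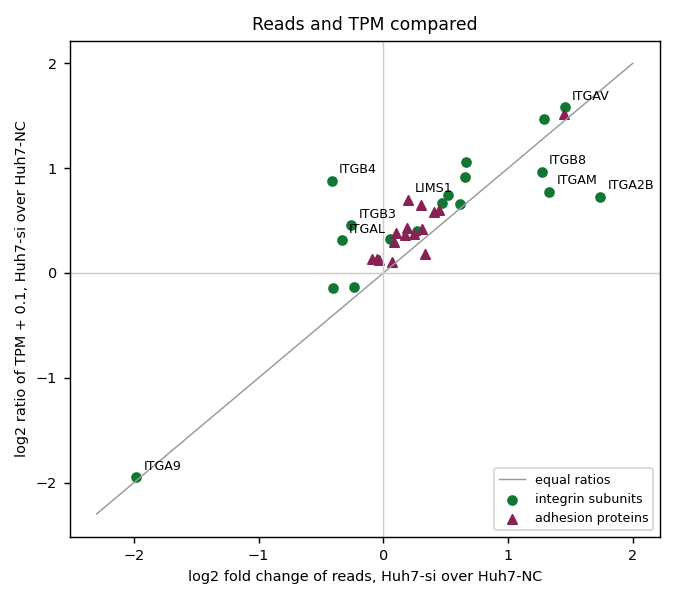
Log2 ratio of TPM + 0.1 (vertical) against log2 fold change of reads (horizontal), Huh7-si over Huh7-NC, for the 34 tested members, with a grey line where both are equal. ITGB4 (reads -0.41, TPM 0.88) lies farthest above the line, and ITGA2B (1.74 and 0.73) farthest below it.

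The genes that act with the members were taken from 3 lists, drawn up with earlier results of these data known, so that their shares are descriptions and no independent evidence. Among 31 ligands of integrins other than collagens and laminins, 27 were tested, 10 were higher (37%, against 12.9% of all tested genes) and 0 lower, with a median log2 fold change of 0.75, or 0.41 less like-length genes. With at least 100 reads in a library it was 7 of 22 (31.8%, against 6.9%). FN1 (fibronectin), the ligand of ITGA5 and ITGAV, had 45086 reads in Huh7-NC against 116436 in Huh7-si (769 and 1774 TPM) at 1.42 (1.40 to 1.43). FBN1 (fibrillin 1) had 64 and 236 reads at 1.92 (1.53 to 2.35). LTBP1, which holds latent TGF-beta in the matrix, had 961 and 2508 reads at 1.43, and THBS1 (thrombospondin 1) had 1098 and 2724 at 1.36. HSPG2 (perlecan) had 2576 and 5877 reads at 1.24, and CCN1 had 756 and 1693 at 1.21. The other high ligands did not move as far, FGB (a fibrinogen chain) with 28267 and 28486 reads at 0.06 and VTN (vitronectin) with 17488 and 17378 reads at 0.04, and both were below 0 with TMM (-0.14 and -0.16). TNC, the tenascin C ligand of alpha9beta1, had 9 and 52 reads and was called higher at 2.52 (1.55 to 3.79). NPNT (628 and 1299 reads), IBSP (5 and 15) and EMILIN1 (11 and 27) made up the 10. TNC is named outside the rule for named genes, after its values were seen, as are NPNT, IBSP and EMILIN1.

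Of 54 further partners of the adhesion complex, 49 were tested, 4 were higher (8.16%, against 12.9% of all tested genes) and 0 lower. With at least 100 reads in a library it was 4 of 44 (9.09%, against 6.9%), so these calls lie near the background. The median log2 fold change was 0.31, or -0.01 less like-length genes. NEDD9, a relative of BCAR1, had 243 and 520 reads at 1.15 (0.92 to 1.37). LPXN (leupaxin), a relative of paxillin, had 56 and 116 reads at 1.09, CAV1 (caveolin 1) had 149 and 294 at 1.03, and LPP, a relative of zyxin, had 321 and 623 reads, a ratio of 2.01 after scaling. With TMM 0 of the 4 reached 2-fold. The 3 partners highest by the mean TPM of both libraries were RHOA, with 12705 and 10329 reads at -0.25, RAC1, with 6896 and 5943 at -0.17, both small GTPases, and CD151, a tetraspanin that binds laminin receptors, with 4898 and 4433 at -0.09. FLNA (filamin A), an actin crosslinker, was above CD151 in Huh7-si alone (244 against 223 TPM), with 10883 and 16620 reads at 0.66. None of the 4 was called, and FLNA is named outside the rule, after its values were seen.

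SRF and YAP are transcription regulators that respond to actin tension and adhesion, and 22 of 23 of their well-known target genes were tested. Here 9 were higher (40.9%, against 12.9% of all tested genes) and 0 lower. With at least 100 reads in a library it was 8 of 21 (38.1%, against 6.9%). The median log2 fold change was 0.68, against 0.21 over all tested genes, or 0.38 less like-length genes. FOSB had 122 and 525 reads at 2.15 (1.87 to 2.45), and FOS had 293 and 897 at 1.66 (1.47 to 1.86). TGFB2 had 263 and 769 reads at 1.59, ANKRD1 had 737 and 2117 at 1.57 (1.45 to 1.69), CNN1 (calponin 1) had 61 and 165 at 1.48, and CCN1, also a ligand and so counted in both lists, stood at 1.21. CCN2, the second gene of both lists, had 2300 and 2751 reads at 0.31 and was not called. The actins were the highest of the list, ACTB with 138378 and 118154 reads at -0.18 and ACTG1 with 39738 and 32323 at -0.25, followed by CNN2 with 6713 and 6375 at -0.03, and none was called. Other genes of the list near 0 were TAGLN (0.11), TPM1 (0.02), MYL9 (-0.18), SRF itself (0.14) and F3 (0.03), also not called. They are named outside the rule, after their values were seen. The remaining called genes were AXL (10 and 40.1 reads, 2.00), CRIM1 (1.15) and LATS2 (1.05), also named outside the rule. Log2 fold changes were above 0 for 18 of the 22 tested genes and below 0 for 4, against 11641 and 6314 of all tested genes. With TMM the list stood at 14 above and 8 below, against 9113 and 8842. The genes of the list thus did not all move alike, and whether adhesion had a part in the calls was not tested.

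**Figure D5:**
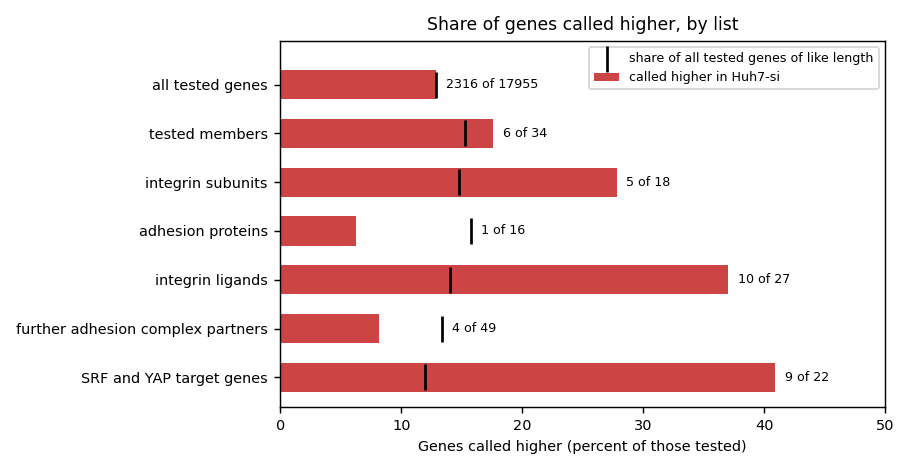
Percent of tested genes called higher in Huh7-si (bars) for all genes, the members, their integrin and adhesion protein subsets and the 3 lists, with numbers called and tested. Black ticks give the mean share called higher among all tested genes of like length, which was 15.3% for the members, 14.8% for integrin subunits, 15.8% for adhesion proteins, 14% for ligands, 13.4% for further partners and 12% for SRF and YAP targets.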

How the data were processed

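RNA was sequenced from 2 libraries of Huh7 cells, 1 with a control siRNA and 1 with an siRNA against BRF2. The authors deposited 1 table of 61541 genes with an estimated count of reads and a TPM value per library and a gene length. The estimated counts are partly fractional and not scaled to library size. The TPM values were made by the authors and do not follow from the gene length given in the table. Columns of the authors' comparison (fold change, its log2, p and adjusted p) were not used. The submitters' processing notes list TopHat2 2.0.12, Bowtie2 2.0.6 and GRCh37, with no roles, while GENCODE release 29 (GRCh38), which gave locations and exon overlaps, holds 94.8% of the table's identifiers; the table itself has no coordinates. The counting tool, its annotation and its use of strand are not given in the sources used here. Exons of 13 members overlap those of a gene with 10 or more reads in a library, and not all of these overlaps are named.

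From the counts, rounded for tests, genes with at least 10 reads over both libraries were tested by a two-sided exact binomial test against the library totals (SciPy 1.17.1). Calls needed a fold of 2 and an unadjusted p under 0.05. Log2 fold changes used a pseudocount of 0.5 reads, and intervals are 95% Clopper-Pearson intervals. Intervals, p and the floor of 3 counts cover counting error only. Like-length medians came from 20 bins of gene length. TMM and the exact test with an assumed spread came from edgeR 4.0.16, and median-of-ratios factors from DESeq2 1.42.0. The test was also run on simulated counts with counting error alone. They had no spread between cultures, so that run cannot show how the test behaves between cultures. Promoter windows came from RefSeq (GRCh38.p14). In all, 11 alternatives were run.

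Named are all members by role, called members, the 10 highest by TPM and those at 0 to 3 reads. From each list the called genes with at least 100 reads in a library (at most 6, by size of change) and the 3 highest by TPM are named, as are genes named for a member with -AS1 or -DT. The members and lists were chosen with earlier results of these data known.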

Additional observations from a re-analysis of the deposited data

How the results depend on the processing

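With 1 library per condition the spread between cultures is unknown, no replicate could be left out, and depth limits the 4 called members with under 100 reads in both libraries (ITGA2B, ITGA9, ITGAM and ITGB8) most. No paired analysis was possible because the labels carry no replicate numbers and there is 1 library per condition. The calls of all 7 members held under TMM, median-of-ratios and upper-quartile scaling, with adjusted p (Benjamini-Hochberg over all tested genes) and without the filter on low counts.

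By library totals 2316 genes were higher and 210 lower, 6 and 1 of them members. Requiring 10 reads in each library gave 1403 and 103 genes and 0 members lower. An assumed biological coefficient of variation of 0.4 gave 569 and 54 genes, 0 members in either direction, 2 ligands, 0 partners and 2 SRF and YAP targets higher. A fold of 1.5 gave 4222 and 698 genes, 16 ligands and 14 partners higher. A pseudocount of 1 CPM gave 911 and 43 genes, 3 members higher and 0 lower, and 1 partner higher. TMM gave 359 genes lower and median of ratios 372; partners called higher were 0 with both and 1 with the upper quartile. Less the like-length median, 0 members, 6 ligands and 1 partner were higher. The members' median log2 fold change of 0.25 was 0.0568 with TMM, 0.048 with median of ratios, 0.12 with the upper quartile, 0.44 by TPM and -0.0571 less the like-length median. The median of all tested genes moved with it, from 0.21 by library totals to 0.0113 with TMM and 0.37 by TPM.

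Members whose log2 fold change changed sign were the following. With TMM they were FERMT2 (-0.10), FERMT1 (-0.13), ITGB5 (-0.15), LIMS1 (-0.00118), PARVA (-0.0238), BCAR1 (-0.0052) and ACTN1 (-0.11). With median of ratios they were FERMT2 (-0.11), FERMT1 (-0.14), ITGB5 (-0.15), LIMS1 (-0.00995), PARVA (-0.0326), BCAR1 (-0.014) and ACTN1 (-0.12). With the upper quartile they were FERMT2 (-0.0336), FERMT1 (-0.0636), ITGB5 (-0.0786) and ACTN1 (-0.0437). By TPM they were ITGAL (0.31), ACTN4 (0.12), ITGB4 (0.88), ZYX (0.14), ITGB3 (0.45) and ILK (0.14). Less the like-length median they were TLN2 (-0.23), FERMT2 (-0.11), FERMT1 (-0.31), ITGB5 (-0.26), PTK2 (-0.000496), TLN1 (-0.34), PARVA (-0.50), PXN (-0.17), VCL (-0.0109), SRC (-0.00952), BCAR1 (-0.0266), ACTN1 (-0.097) and ITGA1 (-0.0181). The cause was not tested beyond these corrections themselves.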
